A study of Danio rerio with 8 samples.

Results

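The collagens that do not build the common fibrils were compared between weakly and strongly fluorescent sp7-GFP cells of zebrafish larvae. Every gene named by the collagen pattern (col, type number, a, chain number and an optional a or b) was taken, and types 1, 2, 5, 9, 10 and 11 were left out. This gave 35 of the 32520 genes in the table, with 33 symbols, because col6a3 and col19a1 each stand on 2 gene identifiers. By class they were 6 basement membrane chains (type 4), 5 beaded chains (type 6), 3 network chains (type 8), 9 FACIT chains (types 12, 14, 16, 19, 21 and 22), 2 transmembrane chains (type 17), 3 multiplexins (types 15 and 18) and 7 others (types 7, 24, 27 and 28). The choice used names only and no measured value, but it was made with earlier results of these data known.

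The cells came from larvae of the AB strain at 4 dpf (days post fertilization), the offspring of a heterozygous Tg(sp7:sp7-GFP) (ulg071 Tg) parent and a wild-type parent. The line carries GFP in the endogenous gene for Sp7 (osterix), a transcription factor of bone-forming cells. All libraries share this allele. P1 cells were weakly and P2 cells strongly positive for GFP. Each library came from pooled, dissociated larvae, whose sex is not given. The 5 libraries of P1 are numbered 1, 2, 3, 5 and 6, and the 3 of P2 are numbered 1, 2 and 4. Titles of libraries with the same number in both populations also share a code, but the labels do not say which libraries came from the same or from separate sorts, so p-values measure the spread between these libraries, which may be technical. The sort was made on the product of the tagged sp7 locus, so the level of sp7 itself is part of how the populations were separated.

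Collagens are trimers of chains that share a triple helix and differ in how they assemble. Type IV chains form the sheet of basement membranes, together with laminins, nidogens and perlecan, and multiplexins sit at the outer face of these sheets. FACIT chains (fibril-associated collagens with interrupted triple helices) decorate fibrils built by other types, type VI forms beaded filaments around cells, type VIII forms hexagonal networks, and type XVII spans the membrane of skin cells. The organic part of bone matrix consists mostly of type I fibrils, whose genes are not among those described here. Where the proteins of these genes lie in the larva was not measured.

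Between 7510312 and 13034333 gene reads stood behind each library. Values are normalized read counts, that is, gene reads divided by 1 size factor per library, and a single read was worth 0.185 to 0.339 of this unit. A count of 3 reads, taken as the limit of detection for counting error only, equalled 0.556 to 1.02. Because the counts are not divided by transcript length, values of different genes are not compared with each other as levels. The sp7 gene itself stood at 57.7 ± 26.9 (SD, n = 5) in P1 and at 1009 ± 229 (SD, n = 3) in P2, and the summed normalized read count of 12 osteoblast markers was 290.2 to 1124 in P1 and 17071 to 19444 in P2. P2 replicate 2 stood apart from the other P2 libraries. Its sum of 20 muscle markers was 33258, against 330 and 253 in P2 replicates 1 and 4, and 2636 to 61913 in P1. Its sum of the 12 osteoblast markers was the highest of the P2 libraries, 19444, against 17071 and 17170.5 in P2 replicates 1 and 4. Over the 2700 genes called between the populations, P2 replicate 2 was the P2 library nearest to the P1 mean for 63.0%. Values of the called collagens, their counts and the counts of some gene lists are therefore also given without it. Because this library was singled out in part for lying near P1, leaving it out tends to widen differences. Values without it are therefore no separate support for a difference.

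Of the 35 collagen genes, 31 had at least 10 reads in at least 3 libraries and were tested with limma, with Benjamini-Hochberg adjustment across the 18475 genes that passed this minimum. At an adjusted p under 0.05, 9 of the 31 (29.0%) were called, against 14.6% of all genes tested. The 3 called higher in P2 (9.68%, against 7.57% of all genes) were col22a1, col8a2 and col14a1a. The 6 called lower in P2 (19.4%, against 7.05% of all genes) were col4a1, col4a5, col4a6, col15a1b, col18a1a and col18a1b. The P1 and P2 libraries did not overlap for 10 of the 31 (32.3%, against 20.6% of all genes). An unadjusted limma p under 0.05 was reached by 16 of the 31, and by 5884 of the 18475 genes tested. On the log2(normalized read count + 1) scale the median difference (P2 minus P1) of the 31 was -0.33, with 10 above and 21 below 0, while the median of all genes tested was 0.00. Without P2 replicate 2 the counts of called collagens were 6 higher and 8 lower, and 3992 of all genes were called. Without P2 replicate 1 they were 1 and 4, with 876 of all genes called. Without P2 replicate 4 they were 1 and 5, with 1115 of all genes called. The fit of all 8 libraries called 2700 genes. In the plot of fold changes by class, all decreases called in this limma fit were basement membrane chains or multiplexins. All increases called in it were FACIT or network chains. The network class was mixed, with 2 of its 3 differences negative. With DESeq2 the network gene col8a1b and the beaded gene col6a1 were also called lower.

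**Figure D1:**
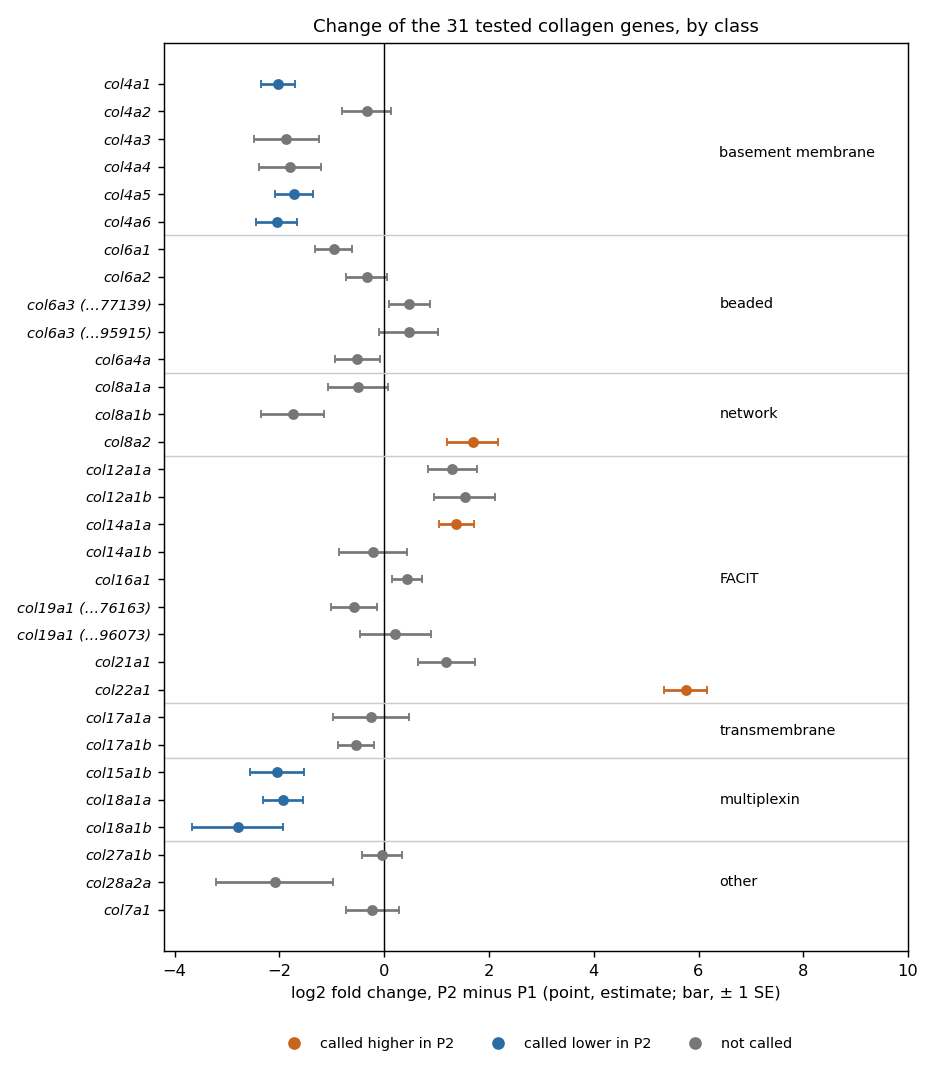
Difference of each of the 31 tested collagen genes between P2 (n = 3) and P1 (n = 5) on the log2(normalized read count + 1) scale, by class. Points are limma estimates and bars 1 SE in either direction; col22a1 lies farthest to the right at 5.75, and the 6 genes called lower lie between -2.79 and -1.73.

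Of the 6 type IV collagen chains, col4a1, col4a5 and col4a6 were called lower in P2 and the other 3 were not called. All 6 differences were negative, with a median of -1.83. The col4a1 gene, whose chain is found in nearly every basement membrane, had normalized read counts of 124, 125, 155, 110.3 and 114 in P1 replicates 1, 2, 3, 5 and 6, and of 19.003, 45.1 and 30.4 in P2 replicates 1, 2 and 4. The P1 libraries lay close together, and every P2 library was below all of them. The means were 126 ± 17.6 (SD, n = 5) and 31.5 ± 13.1 (SD, n = 3), a 3.98-fold lower level in P2, or 5.08-fold without P2 replicate 2. On the log2 scale the difference was -2.03 (SE 0.32, limma adjusted p = 0.00179), and the call held when any single library was left out.

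The partner chain col4a2, which forms the common trimer with col4a1 and lies beside it in the genome of zebrafish, did not pass the test. Its normalized read counts were 17.5, 22.4, 30.1, 14.0 and 28.0 in P1 and 15.9, 8.53 and 34.5 in P2. The populations overlapped, and the difference of -0.33 (SE 0.47, limma adjusted p = 0.659) turned to 0.12 without P2 replicate 2. Within a library, the log2 ratio of col4a1 to col4a2 reads averaged 2.48 ± 0.36 (SD, n = 5) over P1 and 0.78 ± 1.31 (SD, n = 3) over P2. P2 replicates 1 and 4 had ratios of 0.24 and -0.18, whereas P2 replicate 2 had 2.28, inside the P1 range of 2.00 to 2.90. The difference of -1.70 had p = 0.0357 in a two-sided exact permutation test, and 0.143 after adjustment over the 8 pairs of chains compared. The smallest p that 5 against 3 libraries allow is 0.0179, and a single pair at that value also becomes 0.143 after adjustment, so this adjusted value says nothing about whether the chains changed unequally.

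The neighbouring genes col4a5 and col4a6, whose chains form a trimer of epithelial and smooth muscle basement membranes in mammals, were both lower in P2. In zebrafish, col4a5 is the gene of the dragnet mutant, which has misrouted retinal axons. Its normalized read counts were 174, 158, 366, 342 and 215 in P1 and 71.9, 103 and 47.7 in P2. No P2 library reached the lowest P1 library, and the mean was 3.39-fold lower (251 ± 96.8, SD, n = 5, against 74.1 ± 27.6, SD, n = 3; difference -1.73, SE 0.37, limma adjusted p = 0.00970). The mean was 4.19-fold lower without P2 replicate 2 (adjusted p = 0.00513, limma). Without P2 replicate 4 the adjusted p was 0.0570 and the gene was not called.

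For col4a6 the normalized read counts were 713, 387, 692, 966 and 413 in P1 and 99.4, 254 and 117 in P2. Again all P2 libraries lay under all P1 libraries. The mean fell from 634 ± 239 (SD, n = 5) to 157 ± 84.6 (SD, n = 3), 4.05-fold, or 5.88-fold without P2 replicate 2 (difference -2.05, SE 0.39, limma adjusted p = 0.00538). This call held in every fit that left out a library, where the adjusted p was at most 0.0461. The log2 ratio of col4a5 to col4a6 reads averaged -1.33 ± 0.46 (SD, n = 5) over P1 and -1.01 ± 0.48 (SD, n = 3) over P2, a difference of 0.32 (two-sided exact permutation test, p = 0.375) that was smaller than the spread between libraries.

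The remaining pair, col4a3 and col4a4, encodes chains known in mammals from the filtering membrane of the kidney. Both genes were sparsely read. In P1, col4a3 stood at 3.32, 4.26, 2.88, 19.6 and 13.3, and in P2 at 1.02, 1.101 and 1.17, which were 3, 4 and 4 reads. The corresponding values of col4a4 were 3.93, 4.82, 8.19, 22.8 and 6.50 in P1 and 1.36, 3.03 and 0.585 in P2. Neither gene had overlapping populations, but neither was called with limma (col4a3 -1.87, SE 0.63, limma adjusted p = 0.0625, and col4a4 -1.80, SE 0.60, limma adjusted p = 0.0601). DESeq2 on the recovered reads called both, with adjusted p of 0.00399 for col4a3 and 0.0113 for col4a4, and edgeR gave 0.0466 and 0.0689. Without P2 replicate 2 the limma values were 0.0830 and 0.0375.

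All 3 multiplexins were called lower in P2, with a median difference of -2.04. Multiplexins carry sugar chains and, in mammals, release the angiogenesis inhibitor endostatin or a related fragment from their ends. The col18a1a gene, for type XVIII collagen of vessel and epithelial basement membranes, had normalized read counts of 281, 263, 248, 589 and 216 in P1 and 76.7, 126 and 47.4 in P2. All P2 libraries were below all P1 libraries, and P1 replicate 5 stood far above the other P1 libraries. The P1 mean was 319 ± 153 (SD, n = 5) and the P2 mean 83.5 ± 39.9 (SD, n = 3), 3.83-fold lower, or 5.15-fold lower without P2 replicate 2 (difference -1.93, SE 0.39, limma adjusted p = 0.00735). The call held in every fit that left out a library, also without P1 replicate 5 (adjusted p = 0.0127, limma).

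Its paralog col18a1b showed a less certain decrease, with the most negative difference of the 31 genes. The values were 12.7, 3.52, 30.5, 64.7 and 11.1 in P1 and 0.679, 8.26 and 0 in P2, where P2 replicates 1 and 4 held 2 and 0 reads. P1 replicate 2 lay below P2 replicate 2, so the populations overlapped. The difference was -2.79 (SE 0.87, limma adjusted p = 0.0484) on means of 24.5 ± 24.6 (SD, n = 5) and 2.98 ± 4.58 (SD, n = 3). Leaving out P1 replicate 1, 3, 5 or 6, or either of P2 replicates 1 and 4, ended the call, with an adjusted p of 0.0665 to 0.197. Without P1 replicate 2 it was 0.0195, and 0.0112 in the fit without P2 replicate 2. The P2 mean was 0.339 without P2 replicate 2, and no fold is given for it because only 2 reads were left. With edgeR on the recovered reads the adjusted p was 0.113, and with DESeq2 it was 0.0134.

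The remaining multiplexin, col15a1b, encodes a type XV chain, which in mammals anchors the basement membranes of muscle fibres and capillaries to the surrounding matrix. P1 libraries had normalized read counts of 59.8, 53.2, 95.6, 104 and 57.2, and P2 libraries 5.09, 22.8 and 35.7. No P2 library overlapped with P1, and here P2 replicate 4, not replicate 2, was nearest to P1. The log2 ratio of col18a1a to col15a1b reads differed by 0.11 between the populations (two-sided exact permutation test, p = 0.893). The mean fell from 73.9 ± 23.8 (SD, n = 5) to 21.2 ± 15.4 (SD, n = 3), 3.48-fold (difference -2.04, SE 0.51, limma adjusted p = 0.0220). The decrease was 3.62-fold without P2 replicate 2 (adjusted p = 0.0185, limma). The call was lost without P2 replicate 1 (adjusted p = 0.0867) and without P1 replicate 5 (0.0542).

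**Figure D2:**
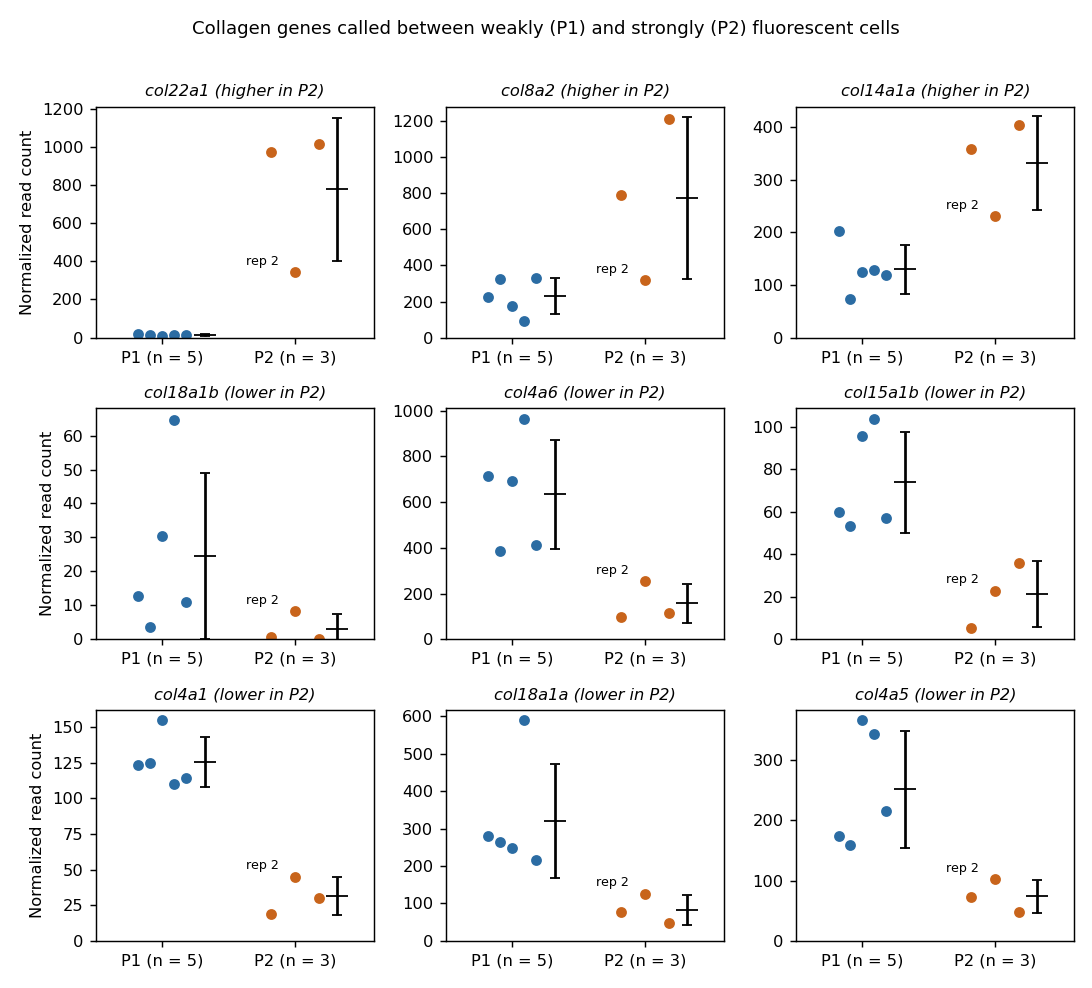
Normalized read count of the 9 called collagen genes in each library of P1 (blue, n = 5) and P2 (orange, n = 3), on linear axes from 0; bars are mean ± SD, ending at 0 where the SD exceeds the mean. The P2 library marked rep 2 is the nearest to the P1 mean in 8 of the 9 genes, and the populations overlap for col8a2 and col18a1b only.

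The FACIT chains contained the largest difference of all 31 genes. The col22a1 gene encodes type XXII collagen, which lies at tissue junctions and is needed for the attachment of muscle to tendon in zebrafish. P1 replicates 1, 2, 3, 5 and 6 had normalized read counts of 17.2, 13.5, 6.86, 12.1 and 12.4, and P2 replicates 1, 2 and 4 had 975, 343 and 1014. The lowest P2 library was far above the highest P1 library. The mean rose from 12.4 ± 3.72 (SD, n = 5) to 777 ± 377 (SD, n = 3), 62.6-fold, or 80.2-fold without P2 replicate 2 (difference 5.75, SE 0.41, limma adjusted p = 4.69e-06). P2 replicate 2 alone stood 27.6-fold above the P1 mean. This was the only collagen of the 31 called under all 20 alternative settings, and in the fits that left out a library its adjusted p was at most 0.000170 (limma).

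The genes whose log2 values followed col22a1 most closely over the 8 libraries were cd82b (Pearson r = 0.992), phospho1 (0.990), tanc1a (0.989), gpt2 (0.988) and acvrl1 (0.987). Among them, phospho1 encodes a phosphatase of mineralizing cells and acvrl1 a receptor of the TGF-beta family. The 8 libraries fall into separate populations, so these values describe mainly the shared gap between P1 and P2.

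The col14a1a gene also rose. Type XIV collagen coats the surface of fibrils and, in mammals, regulates how they grow in tendon and skin. Its normalized read counts were 203, 73.2, 125, 129 and 119 in P1 and 358, 231 and 405 in P2, with no overlap. The mean was 2.55-fold higher in P2 (129.8 ± 46.7, SD, n = 5, against 331 ± 89.8, SD, n = 3; difference 1.38, SE 0.34, limma adjusted p = 0.0203). The mean was 2.94-fold higher without P2 replicate 2 (adjusted p = 0.0103, limma). Without P2 replicate 1 or 4 the adjusted p was 0.0903 or 0.0935, and the call was lost. The paralog col14a1b was near the limit of detection, at 0.604 to 9.45 in P1 and 1.36 to 4.96 in P2 (difference -0.22, SE 0.65, limma adjusted p = 0.849).

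The type XII genes, col12a1a and col12a1b, encode a fibril-associated collagen of tendon, ligament and the bone surface, and both had positive differences that were not called with limma. On the recovered reads, DESeq2 called both (adjusted p of 0.0315 and 0.0259) and edgeR called neither (0.0815 and 0.0773). In P1, col12a1a had normalized read counts of 3339.6, 1642, 2351, 1435 and 2667, and in P2 of 7345, 2426 and 8697. P2 replicates 1 and 4 were above every P1 library, while P2 replicate 2 was inside the P1 range. The means were 2287 ± 774 (SD, n = 5) and 6156 ± 3300.3 (SD, n = 3), 2.69-fold apart (limma adjusted p = 0.0761), and without P2 replicate 2 the mean was 3.51-fold higher in P2 with an adjusted p of 0.0105.

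The same arrangement was seen for col12a1b, with 552, 665, 585, 172 and 615 in P1 and 2023, 448 and 2784 in P2. P2 replicates 1 and 4 exceeded all P1 libraries, and P2 replicate 2 did not. The difference was 1.53 (SE 0.58, limma adjusted p = 0.0910), and without P2 replicate 2 the mean was 4.64-fold higher in P2 (limma, adjusted p = 0.00734). The log2 ratio of col12a1a to col12a1b reads differed by -0.23 between P2 and P1 (two-sided exact permutation test, p = 0.589), less than the spread between libraries.

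None of the other FACIT chains passed the test. The col21a1 gene, for a short chain of vessel walls and other connective tissue in mammals, had few reads: 1.63 to 4.03 in P1, and 12.6, 2.75 and 8.78 in P2 (difference 1.19, SE 0.54, limma adjusted p = 0.152, or 0.0393 without P2 replicate 2). The col16a1 gene had 137 to 219.7 in P1 and 296, 168 and 246 in P2 (difference 0.44, SE 0.28, limma adjusted p = 0.308). Type XIX collagen is expressed in early muscle in mammals, and its symbol stands on 2 identifiers here. ENSDARG00000076163 had 19.3 to 76.4 in P1 and 19.003 to 40.2 in P2 (difference -0.58, SE 0.43, limma adjusted p = 0.380), and ENSDARG00000096073 had 0.664 to 3.93 and 0 to 6.11 (difference 0.21, SE 0.69, limma adjusted p = 0.861). Reads that fit both identifiers could have been split between them, so the separate values are uncertain. In all, 7 of the 9 FACIT differences were positive, with a median of 1.19.

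Of the 3 network chains 1 was called with limma. The col8a2 gene, whose chain is known from the network under the corneal endothelium in mammals, was called higher in P2. Its normalized read counts were 225, 324, 177, 90.7 and 332 in P1 and 793, 317 and 1215 in P2. P2 replicates 1 and 4 were above all P1 libraries, but P2 replicate 2 fell inside the P1 range. The mean rose from 229.9 ± 102 (SD, n = 5) to 775 ± 449 (SD, n = 3), 3.37-fold, or 4.37-fold without P2 replicate 2 (difference 1.69, SE 0.48, limma adjusted p = 0.0366). Without P2 replicate 2 the adjusted p was 0.00731, and it rose to 0.0553 to 0.168 in the fits that left out P1 replicate 1, 3 or 5, P2 replicate 1, or P2 replicate 4. Rescaling the libraries by trimmed means or medians of ratios gave 0.0509 and 0.0516, and on the recovered reads edgeR gave 0.0528 and DESeq2 0.0137.

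The type VIII chains of the other kind had negative differences. In zebrafish col8a1a is the gene of the gulliver mutant, which has a distorted notochord. It had normalized read counts of 7.55, 11.9, 14.4, 12.3 and 19.8 in P1 and 6.11, 3.58 and 26.3 in P2, so the P2 libraries lay on both sides of P1 (difference -0.50, SE 0.57, limma adjusted p = 0.580). The values of col8a1b were 79.5, 25.8, 29.4, 57.4 and 30.2 in P1 and 3.05, 14.0 and 29.3 in P2. Only P2 replicate 4 reached into the P1 range (difference -1.75, SE 0.60, limma adjusted p = 0.0668), and without that library the adjusted p was 0.0391. DESeq2 on the recovered reads gave 0.0408 and edgeR 0.111. The log2 ratio of col8a1a to col8a2 reads averaged -3.94 ± 0.81 (SD, n = 5) over P1 and -6.13 ± 0.66 (SD, n = 3) over P2 without overlap. The difference of -2.19 had p = 0.0179, the smallest that the 56 divisions of these libraries allow in a two-sided exact permutation test, and 0.143 after adjustment over the 8 pairs. A single pair at the smallest p gets this adjusted value in any case, so it says nothing about whether these chains changed unequally.

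Type VI collagen, which forms beaded filaments around muscle fibres, tendon cells and cartilage cells, had no called chain among 5 tested with limma. The col6a1 gene came nearest, the only chain of the 5 with an unadjusted p under 0.05, and DESeq2 called it while edgeR and voom called 0 chains. Its normalized read counts were 2489, 855, 1553, 1296 and 1452 in P1 and 949.8, 624 and 673 in P2. P2 replicates 2 and 4 were below every P1 library and P2 replicate 1 was not, and the mean was 1529 ± 599.5 (SD, n = 5) against 749 ± 176 (SD, n = 3) (difference -0.97, SE 0.35, limma adjusted p = 0.0828). Without P1 replicate 2, the lowest P1 library, the adjusted p was 0.0359.

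The chains that assemble with col6a1 showed differences closer to 0. For col6a2 the values were 1684, 724, 1268, 898 and 1233 in P1 and 1105, 480.4 and 1297 in P2 (difference -0.33, SE 0.39, limma adjusted p = 0.589). The main col6a3 gene, ENSDARG00000077139, had 1315, 1102, 1131, 391 and 1064 in P1 and 1421, 1019 and 1487 in P2 (difference 0.48, SE 0.39, limma adjusted p = 0.429). Its P1 replicate 5 was far below the other P1 libraries. The log2 ratio of col6a1 to this col6a3 gene averaged 0.64 ± 0.76 (SD, n = 5) over P1 and -0.81 ± 0.29 (SD, n = 3) over P2 and did not overlap, a difference of -1.45 with p = 0.0536 in a two-sided exact permutation test and 0.143 after adjustment. The ratios of col6a1 to col6a2 (difference -0.63, exact permutation p = 0.0714) and of col6a2 to col6a3 (-0.81, exact permutation p = 0.107) differed less. An adjusted value of 0.143 is also what a single pair at the smallest possible p gets, so it says nothing about whether col6a1 and col6a3 changed unequally.

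The other col6a3 identifier, ENSDARG00000095915, had 14.8 to 26.9 in P1 and 21.7, 11.6 and 98.9 in P2. Its high mean in P2 rested on replicate 4 (difference 0.47, SE 0.56, limma adjusted p = 0.601), and the difference was -0.39 without that library. The col6a4a gene, which encodes an alternative to the col6a3 chain, as known from mouse, had 696, 451, 604, 225 and 530.3 in P1 and 363, 173 and 557 in P2 (difference -0.52, SE 0.43, limma adjusted p = 0.432). The beaded class thus had 2 positive and 3 negative differences and a median of -0.33, the same as that of all 31 collagens.

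The skin collagens did not pass the test. Type XVII collagen is a transmembrane protein of the hemidesmosome, with which basal keratinocytes hold on to their basement membrane, and type VII forms the anchoring fibrils beneath. The col17a1b gene had normalized read counts of 25.1, 32.1, 21.03, 37.6 and 22.1 in P1 and 15.6, 20.9 and 18.4 in P2. The populations lay next to each other without overlap, at a difference of -0.54 (SE 0.35, limma adjusted p = 0.313). Its paralog col17a1a had 59.5 in P1 replicate 2 and 4.65 to 11.4 in the other P1 libraries, against 6.11, 17.9 and 6.44 in P2 (difference -0.26, SE 0.72, limma adjusted p = 0.838). P1 replicate 2 was also the library with the highest sum of 16 keratinocyte markers, 33309, against 3116 to 6375 in the other P1 libraries. For col7a1 the values were 6.49 to 15.3 in P1 and 5.43, 19.5 and 5.85 in P2 (difference -0.23, SE 0.51, limma adjusted p = 0.797). P1 replicate 2 was the lowest P1 library for col7a1, at 6.49. For col17a1b it had 32.1, below the 37.6 of P1 replicate 5. The part of keratinocytes in the values of these genes was not tested.

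The remaining genes were mostly close to the limit of detection. The col27a1b gene belongs to the fibril-forming clade and serves the notochord and vertebral column in zebrafish. It had normalized read counts of 110.3, 111, 123, 71.7 and 51.0 in P1 and 83.5, 57.0 and 135 in P2 (difference -0.04, SE 0.38, limma adjusted p = 0.953). P2 replicates 1 and 2 were inside the P1 range, and P2 replicate 4 was above it. The col28a2a gene, for a collagen with von Willebrand factor A domains, varied widely, from 2.72 to 84.9 in P1, and was at 0.339, 41.0 and 1.76 in P2 (difference -2.09, SE 1.12, limma adjusted p = 0.217, or 0.0262 without P2 replicate 2).

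Of the 4 genes below the read minimum, col28a1b had 1.297 to 2.95 in P1 and 0, 0.275 and 0 in P2, where the value above 0 was 1 read. Its libraries did not overlap, and it was called lower when no minimum was set (limma adjusted p = 0.0386). The related col28a1a had 12.9 in P1 replicate 5 and 0.221 to 2.28 in the other P1 libraries, with the same single read in P2. For col28a2b the values were 0.302 to 3.76 in P1 and 0 to 0.826 in P2. The col24a1 gene, of the fibril-forming clade and known from mouse osteoblasts, had 0 to 1.34 in P1 and 0.339, 0 and 3.22 in P2, so a difference was not detectable at this depth.

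**Figure D3:**
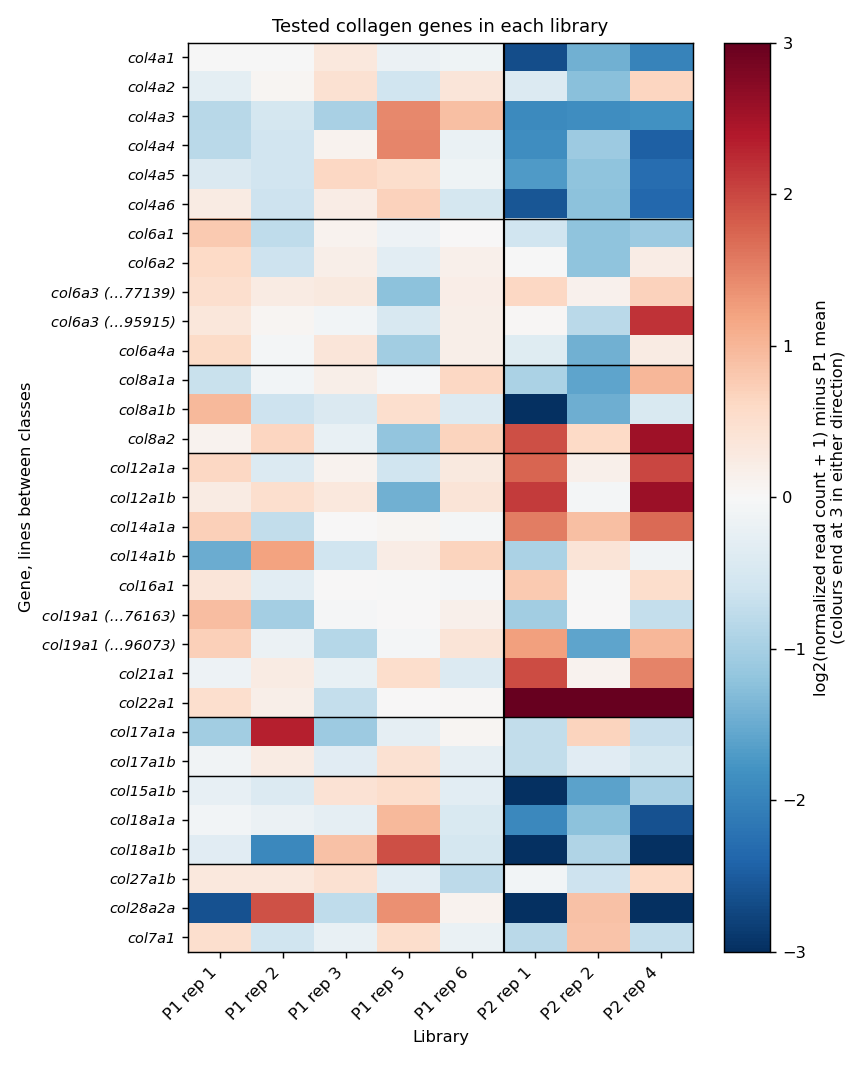
Log2(normalized read count + 1) of the 31 tested collagen genes in the 5 P1 and 3 P2 libraries, minus the P1 mean of the gene; red is above and blue below that mean, and colours end at 3 in either direction. The P2 columns are blue for most basement membrane chains and all multiplexins and dark red for col22a1, and P2 replicate 2 is paler than replicates 1 and 4 for most called genes.

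The heat map of all libraries shows how the P2 libraries differed among themselves. P2 replicate 2 was nearest to the P1 mean for 8 of the 9 called collagens (88.9%), against 63.0% of all 2700 called genes, and for the remaining collagen, col15a1b, replicate 4 was nearest. In 5 of the uncalled genes the adjusted p passed 0.05 once P2 replicate 2 was left out, namely col12a1a, col12a1b, col21a1, col28a2a and col4a4. The first 3 of these were higher and the last 2 lower in P2. The same fit called 3992 of all genes, against 2700 with all 8 libraries. Such gains tend to follow from leaving out the library nearest to P1. The share of all uncalled genes that gained a call was not counted.

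The sorted populations also differed in markers of some other cell types. In bulk samples, fewer cells of a type and less RNA per cell cannot be told apart. Of all genes tested, 7.05% were called lower and 7.57% higher in P2, and the counts of called markers stand beside these shares. Endothelial markers, of which 8 of 15 tested were called lower in P2, summed to 692 to 980.0 in P1 and to 362 to 539 in P2, with at most 1 of the 16 at 0 in any library. On the recovered reads edgeR called 6 of the 15 lower, voom 4 and DESeq2 7. Of all genes, these tools called 10.7%, 6.99% and 20.1% in either direction. The endothelial sum was lower in every P2 library, as were col4a1, col15a1b and col18a1a, which vessels express. The populations overlapped for col4a2, the partner chain of col4a1 (limma adjusted p = 0.659). P1 replicate 5 had the highest endothelial sum, 980.0. Among the P1 libraries it was the lowest for col4a1 and the highest for col15a1b and col18a1a. The part of endothelial cells in the differences was not tested.

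Keratinocyte markers (6 of 16 called lower) summed to 3116 to 33309 in P1 and 781 to 3323 in P2, where P2 replicate 2 again lay nearest to P1. On the recovered reads edgeR and voom each called 2 of the 16 lower, and DESeq2 called 10. In the fit without P2 replicate 2, 13 of the 16 were called lower. That fit called 3992 of all genes, against 2700 with all 8 libraries. P1 replicate 2, with the highest keratinocyte sum, had 158 for col4a5 and 387 for col4a6, the lowest values of the P1 libraries. For col18a1a it had 263, the median of P1. The part of keratinocytes in the lower values of the 3 genes in P2 was not tested. Macrophage markers (6 of 9 called lower) summed to 238 to 316 in P1 and 29.9 to 80.2 in P2, with 4, 2 and 5 of the 11 at 0 in P2 replicates 1, 2 and 4. Neuron markers (4 of 10 called lower) summed to 264 to 1507 in P1 and 91.3 to 353 in P2, and notochord markers (3 of 6 called lower) to 981 to 2328 and 861 to 1297. With edgeR, 3 neuron and 2 notochord markers were called lower, with voom 0 and 1, and with DESeq2 7 and 4. Chondrocyte markers (2 of 13 called higher and 3 lower) summed to 5894 to 8175 in P1 and 3610 to 9162 in P2. Neutrophil markers (1 of 7 called higher and 1 lower) summed to 208 to 788 and 470 to 1056. Erythroid markers (1 of 9 called lower) summed to 50.2 to 3884 and 50.6 to 673. The part of these cell types was not tested either.

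Fibroblast markers, which could accompany type VI, XII and XIV collagens, overlapped between the populations, at 6420.4 to 11060 in P1 and 8400.2 to 9346 in P2. Of 12 tested, 1 was called lower in P2, against 7.05% of all genes. DESeq2 called 3 lower, as did the limma fit without P2 replicate 2, and both called more of all genes. Of 20 muscle markers tested, 0 were called with limma, edgeR or voom and 1 with DESeq2. With limma, 11 had an unadjusted p under 0.05, as did 5884 of the 18475 genes tested. The sum of the muscle markers was 2636 to 61913 in P1, where col22a1 was at most 17.2. P2 replicates 1 and 4, with the lowest muscle sums of 330 and 253, had the highest col22a1 values, and P2 replicate 2, with 33258, had the lowest of the P2 values. With P2 replicate 2 left out, 16 of the 20 muscle markers were called lower in P2, and 3992 of all genes were called. The part of muscle cells in the col22a1 values was not tested.

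**Figure D4:**
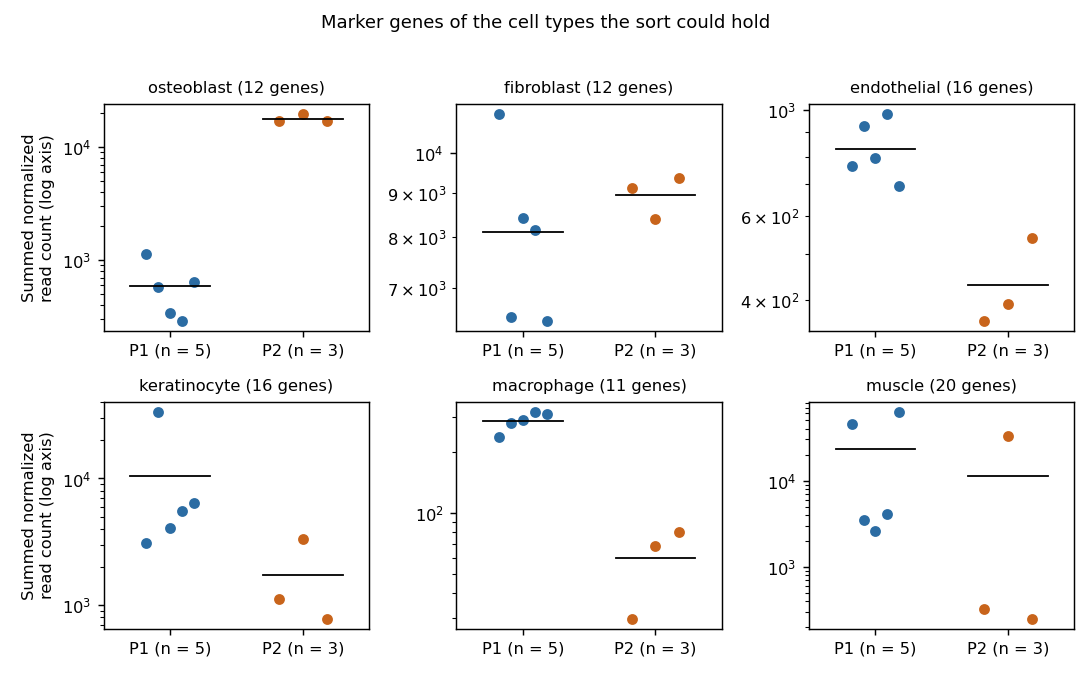
Summed normalized read count of marker genes of 6 cell types in each library of P1 (blue, n = 5) and P2 (orange, n = 3), on log axes; horizontal lines are means. Osteoblast sums are higher, and endothelial and macrophage sums lower, in every P2 library, while P2 replicate 2 has a muscle sum of 33258 against 330 and 253 in the other P2 libraries.

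Of 18 laminin, nidogen, perlecan and processing genes that work with basement membrane collagens, 5 (9 without P2 replicate 2) were called higher and 2 lower in P2, with a median difference of 0.84. Of all genes, 7.57% were called higher and 7.05% lower with all 8 libraries. The bracketed count belongs to the fit without P2 replicate 2. That fit called 3992 of all genes, against 2700, and 50.6% of its calls were higher. None of the lists that follow was tested as a list. The nidogen gene nid1a, whose product links laminin to type IV collagen, fell from 132 ± 19.3 (SD, n = 5) to 13.9 ± 9.81 (SD, n = 3) (difference -3.50, SE 0.50, limma adjusted p = 0.00102). Its relative nid2a rose from 253 ± 47.0 to 690.0 ± 228 (difference 1.41, SE 0.29, limma adjusted p = 0.00860). Also higher were pxdn, for peroxidasin, the enzyme that cross-links type IV trimers (difference 2.25, SE 0.48, limma adjusted p = 0.00968), and plod3, for a hydroxylase that modifies collagen lysines (difference 1.53, SE 0.33, limma adjusted p = 0.0114).

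In the skin anchoring list 2 of 18 tested genes were called higher and 6 lower, against 7.57% and 7.05% of all genes, with a median of -0.75. Without P2 replicate 2, where more of all genes were called, 4 of the list were called higher and 6 lower. The Fraser complex gene fras1 (-2.33, SE 0.36, limma adjusted p = 0.00147), its relative frem3 (-2.15, SE 0.54, limma adjusted p = 0.0225) and the hemidesmosome integrin itga6b (-2.19, SE 0.46, limma adjusted p = 0.00973) were lower, and the plectin gene plecb was higher (1.27, SE 0.30, limma adjusted p = 0.0172). The col17a1 and col7a1 genes, which belong to the same structures, were not called, as given above.

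Among 22 tested receptors for collagen, 7 were called higher and 1 lower, against 7.57% and 7.05% of all genes, with a median of 1.01. Without P2 replicate 2, where more of all genes were called, 8 receptors were called higher and 4 lower. The integrin alpha subunits itga10 and itga11a, which bind collagen on cartilage and mesenchymal cells, rose from 72.4 ± 25.8 to 828 ± 284 (difference 3.505, SE 0.33, limma adjusted p = 3.87e-05) and from 85.2 ± 22.9 to 451 ± 179 (2.34, SE 0.33, limma adjusted p = 0.00100). The discoidin receptors split: ddr2a, the mesenchymal form, rose (1.76, SE 0.33, limma adjusted p = 0.00543), and ddr1, the epithelial form, fell (-1.65, SE 0.32, limma adjusted p = 0.00564). In the tendon and myotendinous junction list, to which type XXII collagen belongs by function, 4 of 12 tested genes were called higher and 2 lower. Of all genes, 7.57% and 7.05% were, and the median of the list was 0.51. Without P2 replicate 2, where more of all genes were called, the list had 5 higher and 2 lower. On the recovered reads edgeR called 1 higher and 1 lower, voom 1 and 2, and DESeq2 3 and 2. The tendon genes tnmd (1.56, SE 0.34, limma adjusted p = 0.0110) and scxb (1.84, SE 0.49, limma adjusted p = 0.0287) rose, and tnxba (-3.48, SE 0.88, limma adjusted p = 0.0224) and thbs4a (-1.48, SE 0.40, limma adjusted p = 0.0284) fell.

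**Figure D5:**
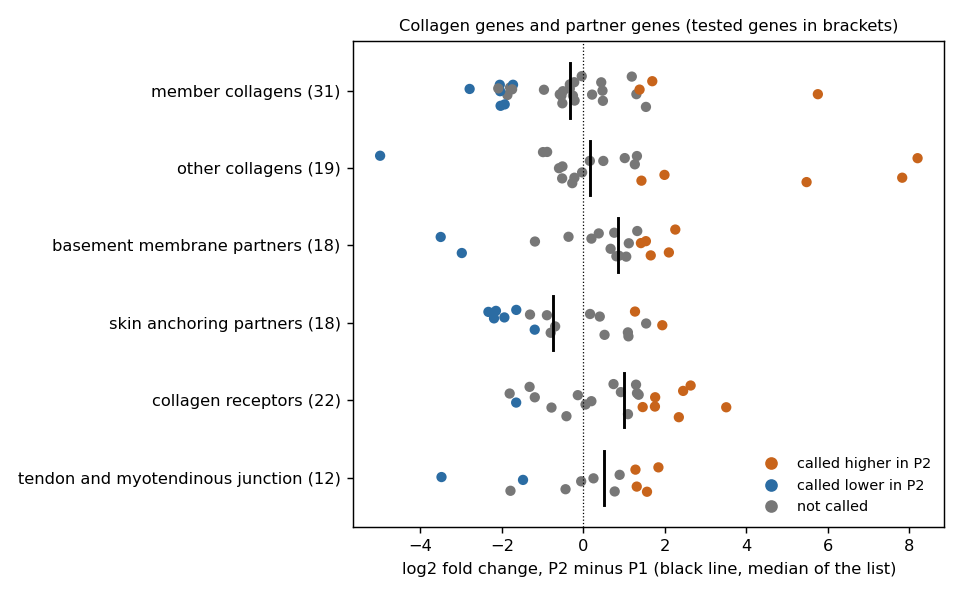
Difference between P2 and P1 on the log2(normalized read count + 1) scale for the 31 tested collagens described here, the 19 of types 1, 2, 5, 9, 10 and 11, and 4 lists of partner genes. Each point is a gene, orange if called higher and blue if called lower in P2, and vertical lines are medians, which run from -0.75 for the skin anchoring list to 1.01 for the receptors.

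Among the 19 collagen genes of types 1, 2, 5, 9, 10 and 11, 5 were called higher and 1 lower, with a median of 0.16, against 3 and 6 of the 31 described here and a median of -0.33. These counts are a description, beside 7.57% of all genes called higher and 7.05% called lower, and the difference between the lists was not tested.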

How the data were processed

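Zebrafish cells sorted as P1 or P2 were sequenced as SMART-Seq 2.0 cDNA in Nextera XT libraries, single-end and without molecular identifiers, so limits of detection cover counting error only. Per the methods of the study, reads went through the nf-core rnaseq pipeline at default parameters on GRCz11 with the Ensembl annotation, and DESeq2 followed. The handling of strand and of reads on paralogs or overlapping genes is not given in the sources used here. The authors deposited a signal per gene and library, the read count divided by 1 size factor per library (2.95 to 5.40). Multiplication by the size factor gave whole reads for 100% of values, to within 0.1 read (largest deviation 9.72e-05). A second table with 10 columns that match no sample, and the tables of the authors' own fold changes and p-values for the populations, were not used.

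Log2(normalized read count + 1) was fitted on population over 8 libraries with limma 3.58.1 (trend) in R 4.3.3, for genes with at least 10 reads in at least 3 libraries. Genes were called at a Benjamini-Hochberg adjusted p under 0.05. Fold changes on this scale understate those of low genes. The steps were also run on simulated data with 200 changed genes. There all genes had the same spread setting and no library stood apart, so the simulation does not bear on the calls given here. Alternatives were pseudocounts of 0.5 and 5, other read minimums, scalings and library omissions, a replicate block, and voom, edgeR 4.0.16 and DESeq2 1.42.0 on the recovered reads. The members, lists and pairs of chains were chosen with earlier results of these data known. Every collagen is named, and of each partner list the called genes with the 4 smallest adjusted p. A table of zebrafish gene names held 33 of the 35 identifiers, all but col22a1 and the col6a3 gene ENSDARG00000095915. It did not give the same symbol for col14a1a, col12a1a, col12a1b and col8a1b. Symbols here are those the authors deposited, and the functions given for these genes rest on those symbols. Gene neighbours come from the RefSeq annotation of GRCz12tu, and no coordinates, sequences or levels per transcript length are given. One gene with a near name, col7a1l, did not match the pattern and was not analysed here.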

Additional observations from a re-analysis of the deposited data

Results flagged for a closer look

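In 5 of the 31 tested collagens, 1 P1 library lay far from the other 4. Its gap was larger than Dixon's test allows for 5 values, which chance gives in about 1 in 20 groups of normally distributed values. The rule was applied to normalized read counts and not to their log2 values, so this rate need not hold here. It was applied to these collagens only, so no share over all genes tested stands beside the 5. Whether P1 replicate 5 lay apart for other genes was not counted. In 4 of the 5 collagens the library was P1 replicate 5. That library had 22.8 for col4a4, where the next P1 value was 8.19, and 589 for col18a1a, where the next was 281. The same library was low for the col6a3 gene ENSDARG00000077139, at 391 against 1064 for the next, and for col12a1b, at 172 against 552. In the remaining gene, col17a1a, P1 replicate 2 had 59.5, where the next P1 value was 11.4. Of the 5 genes, col18a1a alone was called, and its call held without P1 replicate 5 (adjusted p = 0.0127, limma).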

How the results depend on the processing

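Over 20 alternatives the 31 tested collagens gave 601 values, of which 524 kept direction and side of the threshold, 41 lost and 14 gained a call, and 22 changed sign. No called collagen changed sign, col22a1 was called throughout, and the other 8 lost the call under at least 1 alternative. DESeq2 called 5 collagens higher and 10 lower, and 20.1% of all genes. Leaving out a library gave 1 to 6 higher, 4 to 8 lower and 4.81% to 22.1% of all genes called, with the lowest share without P2 replicate 1 and the highest without P2 replicate 2. The share of all genes was 6.44% with no read minimum and 6.99% with voom. The replicate numbers 1 and 2 occur in both populations. The deviations of same-numbered libraries correlated at 0.00100 and -0.127, and those of differently numbered libraries at -0.259 to 0.210. That range holds both values, so the values of same-numbered libraries do not settle the pairing. The titles of these libraries share a code too, whose meaning is not given, so whether they are pairs was not settled and the block is given as an alternative only. The replicate block on these 4 libraries called 1 collagen higher, 0 lower and 2.36% of genes, and the same libraries without it 1, 0 and 0.981%. Calls were 51.8% higher in P2, 39.6% with median-of-ratios and 39.9% with trimmed-mean scaling, which moved the median of all genes to -0.13 and -0.12, and 73.8% with 10 reads required in every library. Among the uncalled genes, with a library left out, differences ranged from -0.36 to 0.25 for col27a1b, -0.59 to 0.15 for col14a1b, -0.72 to 0.33 for col17a1a, -0.77 to 0.0693 for col7a1, -0.83 to 0.12 for col4a2, -0.61 to 0.10 for col6a2, -1.26 to 0.0325 for col8a1a, -0.000916 to 1.11 for col19a1 ENSDARG00000096073 and -0.39 to 1.11 for col6a3 ENSDARG00000095915. With library sizes only col27a1b was at 0.0159, and with voom col19a1 ENSDARG00000096073 at -0.48. In the 4 libraries, with and without the block, col7a1 was at 0.0658, col6a3 ENSDARG00000095915 at -0.59 and col6a3 ENSDARG00000077139 at -0.000853. The cause was not tested. The call of a gene with few reads could depend on the tool. The col4a3 gene, with 3 or 4 reads in each P2 library, was not called with limma (adjusted p = 0.0625) but was with edgeR (0.0466) and DESeq2 (0.00399).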
